A study of Mus musculus with 12 samples.

Results

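The DNA replication genes described here are 31 mouse genes that build, fire and supply the replication fork, matched by gene symbol to 31 of the 43629 gene identifiers counted. They were examined in 12 bulk RNA sequencing libraries from C57BL/6 mice, 3 in each of 4 groups. The first group, labelled AGHMT, holds mouse embryonic fibroblasts 3 weeks after the genes for Akt (Akt1 in the study's title), Gata4, Hand2, Mef2c and Tbx5 were introduced. The GHMT group holds the same kind of fibroblasts 3 weeks after Gata4, Hand2, Mef2c and Tbx5 without Akt. Cells of both groups were sorted for an αMHC-GFP reporter, which is driven by the promoter of the cardiac myosin gene Myh6. The CM group is ventricular cardiomyocytes isolated from adult mice, and the E group is fibroblasts 3 weeks after an empty vector. The labels name no sort for CM or E, so factors and sort cannot be told apart in any comparison with E. Nothing in the labels says whether the 3 libraries of a group came from separate cultures or animals, and p-values measure only the spread between them.

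DNA is copied once in each cell cycle. The MCM2-7 ring is loaded onto origins by Cdc6 and Cdt1, is turned into a working helicase by Mcm10, Cdc45 and the GINS complex, and is followed by primase, DNA polymerases, the Pcna clamp with its loader, and the enzymes that join Okazaki fragments. Ribonucleotide reductase and thymidylate synthase supply nucleotides, and cyclin E and E2F factors switch on entry into S phase, when most of these genes are transcribed. Cultured embryonic fibroblasts divide, whereas adult cardiomyocytes have largely left the cell cycle.

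Reads assigned to genes came to 14386407 to 18493989 per AGHMT-labelled library, 1872558 to 2200815 per GHMT library, 5120230 to 15952646 per CM library and 15971154 to 33552138 per E library. Mitochondrially encoded genes took 36.6% to 42.7%, 27.8% to 72.2%, 40.0% to 59.9% and 3.65% to 7.36% of these reads in the same order of groups. Levels below are in CPM, read counts scaled to a common library size with TMM factors, a trimmed mean of ratios between libraries. Akt1, the gene that separates both reprogrammed groups by label, had 7.30, 12 and 19.6 CPM in the libraries labelled AGHMT, against 1.31, 13.5 and 13.7 CPM in GHMT libraries. The groups overlapped, and the test gave a log2 fold change of 0.34 with an adjusted p of 0.786. Akt1 was lower than in E in AGHMT-labelled (log2 fold change -2.27, adjusted p = 0.0227) and GHMT libraries (-2.62, adjusted p = 0.0146). Neither of these calls passed after a correction for GC content. The counts do not bear out the AGHMT label. They cannot refute it either, because the sources used here do not say whether reads of the introduced gene count under mouse Akt1. Tbx5 had 63.8, 105 and 109 CPM in AGHMT-labelled libraries and 151, 133 and 177 CPM in GHMT libraries, against 4.53, 4.63 and 3.06 CPM in E libraries, all above E. Tbx5, Gata4 and Mef2c passed the test against E in both groups, whereas Hand2 did not (adjusted p = 0.115 in AGHMT-labelled and 0.166 in GHMT libraries). The summed level of 9 cardiomyocyte markers ran from 4142 to 4566 CPM in AGHMT-labelled, 733 to 1283 CPM in GHMT, 30098 to 55918 CPM in CM and 8.65 to 18.3 CPM in E libraries. That of 10 fibroblast markers ran from 8427 to 9477, 4851 to 7020, 1012 to 1226 and 11420 to 13737 CPM in the same order, so the sorted cells carried markers of both cell types. Markers of other cell types also moved with the groups. The summed level of 10 macrophage markers was 68.2 to 133 CPM in AGHMT-labelled, 2.62 to 7.56 CPM in GHMT, 153 to 208 CPM in CM and 16.7 to 42.5 CPM in E libraries, with Cd68, Adgre1, Cd14, Fcgr1, C1qa and C1qb at 0 in GHMT. That of 8 endothelial markers was 62.6 to 73.7 CPM in AGHMT-labelled, 2.62 to 12 CPM in GHMT, 485 to 696 CPM in CM and 8.52 to 11.1 CPM in E libraries, with Egfl7 at 0 in GHMT and Vwf at 0 in E. That of 8 mast cell markers was 312 to 341 CPM in AGHMT-labelled, 65.5 to 162 CPM in GHMT, 8.93 to 12.1 CPM in CM and 0.535 to 1.28 CPM in E libraries, and Cpa3, Kit, Tpsb2, Cma1, Fcer1a, Ms4a2 and Hdc were at 0 in GHMT, so Mcpt4 alone held that sum there. The part of these cells in the differences described below was not tested.

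Adjusted p-values are Benjamini-Hochberg values of edgeR's quasi-likelihood test over 15059 genes, with 5% as the threshold, and errors of log2 fold changes are standard errors. Of the 31 genes 30 were tested. Fen1, the flap nuclease of Okazaki fragment processing, was too low, with no read in AGHMT-labelled or GHMT libraries.

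Together the 31 genes had summed levels of 219 to 245 CPM in AGHMT-labelled libraries, 132 to 151 CPM in GHMT libraries, 98.9 to 133 CPM in CM libraries and 865 to 1003 CPM in E libraries. The 4 ranges did not overlap except for those of GHMT and CM, which shared the stretch from 132 to 133 CPM. Group means were 234 ± 13.1, 145 ± 10.6, 118 ± 17.2 and 915 ± 76.2 CPM (SD, n = 3 each) in AGHMT-labelled, GHMT, CM and E libraries. In a bulk sample, fewer cells in S phase and less of these RNAs per cell cannot be told apart. The sums rest on 3084 to 4448 reads per AGHMT-labelled library, 101 to 290 per GHMT library, 576 to 1641 per CM library and 25579 to 52451 per E library.

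**Figure D1:**
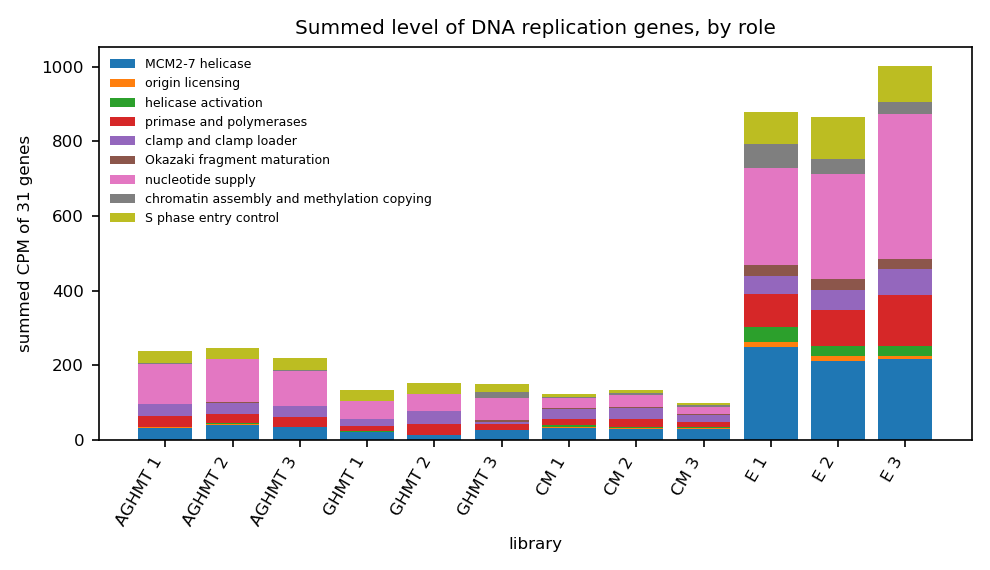
Summed CPM of the 31 DNA replication genes (vertical axis, linear, not corrected for gene length) in each of the 12 libraries, stacked by the role of the genes. The E libraries reach 865 to 1003 CPM, and nucleotide supply is the tallest layer in all AGHMT-labelled, GHMT and E libraries.

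Against E, the AGHMT-labelled libraries had 26 of 30 replication genes lower and none higher, where 24.6% of all genes tested were called lower and 21.9% higher. GHMT libraries had 26 of 30 lower and none higher, where 32.9% of all genes were called lower and 19.8% higher. CM libraries had 24 of 30 lower and none higher, where 22.5% of all genes were called lower and 19.5% higher. In 29, 27 and 28 of the 30 genes every AGHMT-labelled, GHMT or CM library lay below every E library, where 36.9%, 43.9% and 32.6% of all genes did so. The median log2 fold change of the 30 genes was -3.22 in AGHMT-labelled, -4.46 in GHMT and -3.10 in CM libraries, against medians of -0.16, -1.06 and -0.26 over all genes. With the 6 genes that GHMT libraries did not detect set to their bounds, the GHMT median was -3.72. The 3 comparisons share the E libraries. In all of them 22 genes were lower, and Pcna and Rfc3 passed the test in none. Where both groups had more than 3 reads, the called genes were 2.28-fold to 38.4-fold lower in AGHMT-labelled libraries (24 genes), 2.43-fold to 35.8-fold lower in GHMT libraries (11 genes) and 5.27-fold to 48.2-fold lower in CM libraries (23 genes). Among the AGHMT-labelled calls, those of Mcm2, Mcm4, Gins1, Pold1, Rrm1, Tyms and Ccne2 were each lost when some 1 library was left out, with adjusted p-values of 0.0541 to 0.117, and directions were kept. Leaving out AGHMT 3 ended the call for all 7 of these genes, AGHMT 1 for Mcm2, Gins1, Pold1, Tyms and Ccne2, AGHMT 2 for Pold1 and Ccne2, E 1 for Mcm2 and Pold1, E 2 for Tyms and Ccne2, and E 3 for Ccne2.

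**Figure D2:**
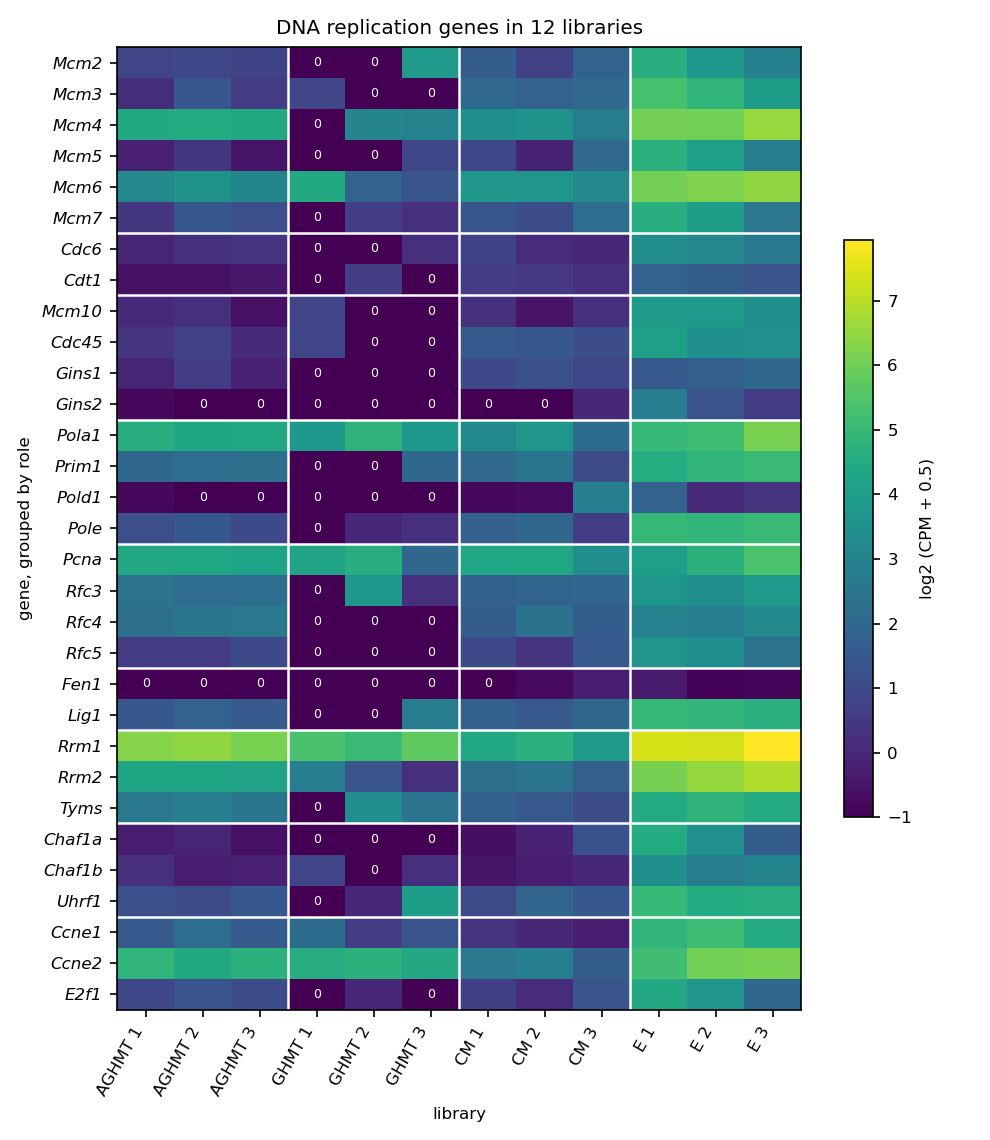
Level of each DNA replication gene (rows, grouped by role) in each library (columns) as log2 of CPM plus 0.5, with 0 written where a library had no read. The E columns are the brightest for most genes, while the GHMT columns hold most of the zeros.

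The MCM2-7 genes encode the 6 subunits of the helicase ring. All 6 were lower in AGHMT-labelled than in E libraries, with a median log2 fold change of -3.34, and 5 of 6 were lower in GHMT and 6 of 6 in CM than in E libraries. Their summed level was 33, 40.4 and 33.1 CPM in AGHMT-labelled libraries, 22.3, 12 and 25.4 CPM in GHMT libraries and 33.1, 30.0 and 29.7 CPM in CM libraries, against 249, 212 and 217 CPM in E libraries. All 9 values outside E lay below every E value.

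Mcm4 had 21, 22.4 and 20.9 CPM in AGHMT-labelled libraries, 0, 7.82 and 7.56 CPM in GHMT libraries, 10.5, 11.3 and 6.18 CPM in CM libraries, and 67.7, 65.3 and 95 CPM in E libraries. The AGHMT-labelled libraries lay between E and the rest and overlapped neither. The log2 fold change against E was -1.83 ± 0.50 in AGHMT-labelled libraries (adjusted p = 0.00903), -3.73 ± 0.59 in GHMT libraries (adjusted p = 0.000176) and -3.02 ± 0.53 in CM libraries (adjusted p = 0.000298). Mcm4 (GRCm38 chr16:15623897-15637400, minus strand) was also 1 of 3 genes higher in AGHMT-labelled than in GHMT libraries, by 1.90 ± 0.57 on the log2 scale (3.73-fold, adjusted p = 0.0333), on 1062 against 26 reads. That call ended when AGHMT 1, AGHMT 2, CM 1 or E 2 was left out, with adjusted p-values of 0.0512 to 0.0928.

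Mcm3 had 0.615, 2.20 and 0.982 CPM in AGHMT-labelled libraries, 1.31, 0 and 0 CPM in GHMT libraries, 3.64, 3.02 and 3.78 CPM in CM libraries, and 40.4, 28.1 and 15.7 CPM in E libraries. Every library outside E stood below 4 CPM and every E library above 15 CPM. Mcm3 was lower than in E by 4.45 ± 0.69 on the log2 scale in AGHMT-labelled libraries (adjusted p = 0.000213). The GHMT libraries held 1 read against 3755 in E, a pooled ratio of 127-fold lower (95% counting interval 22.8 to 5027). In CM libraries it was lower by 3.01 ± 0.65 (adjusted p = 0.00164). Counting intervals and bounds cover counting error only.

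Mcm6 had 8.84, 11.3 and 8.02 CPM in AGHMT-labelled libraries and 21, 3.13 and 2.06 CPM in GHMT libraries, against 67.5, 74.3 and 87.3 CPM in E libraries. Its level in GHMT 1 lay above all AGHMT-labelled libraries and below all E libraries. Mcm2 had 1.31, 1.38 and 1.25 CPM in AGHMT-labelled libraries and 0, 0 and 13.7 CPM in GHMT libraries, against 23.9, 13 and 7.12 CPM in E libraries. Its 20 GHMT reads all came from GHMT 3, that library overlapped E, and the difference between GHMT and E did not pass (log2 fold change -1.61, adjusted p = 0.183). Mcm5, at 0.476 ± 0.314 CPM in AGHMT-labelled against 16.2 ± 9.57 CPM in E libraries (SD, n = 3 each), was the MCM gene with the largest fold in that comparison (33.5-fold lower, adjusted p = 0.000857).

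The starts of 26 of the 31 genes had a window in RefSeq's GRCm38.p6 annotation, 250 bases before to 50 bases after the start; Gins1, Gins2, Mcm4, Pole and Ccne2 had none. Windows were searched on both strands for the E2F motif, spelled TTTCCCGC, TTTCGCGC, TTTGCCGC or TTTGGCGC. It was found in 11 of 26 replication genes (42.31%: Cdc6, Cdt1, Lig1, Mcm3, Mcm5, Mcm6, Mcm7, Pola1, Pold1, Rfc3 and Uhrf1), and in 2.605% of all 27025 genes with a window. The CCAAT motif was in 57.69% of the replication genes and 41.06% of all genes, and the CHR motif (TTTGAA or TTCGAA) in 19.23% and 21.66%. Against E, genes with the E2F letters were called lower in 9 of 11 cases in AGHMT-labelled libraries, and genes with a window without them in 12 of 14. A match describes letters and is no evidence of binding. The windows of Mcm3, Mcm5, Mcm6 and Cdc6 are shown as examples of genes that fell against E in all 3 groups and hold the motif. Mcm7, Lig1 and Uhrf1 did so too and are not shown. That of Rrm2 is shown because it fell likewise, was higher in AGHMT-labelled than in GHMT libraries and holds none. Capitals mark E2F matches on either strand; in Mcm5 and in the first run of Mcm6, TTTCGCGC and TTTGGCGC overlap on opposite strands. The windows are, 5′ to 3′ on the gene's strand, Mcm3 at chr1:20820263-20820562 (minus), Mcm5 at chr8:75109259-75109558 (plus), Mcm6 at chr1:128359656-128359955 (minus), Cdc6 at chr11:98907901-98908200 (plus) and Rrm2 at chr12:24708004-24708303 (plus).
Mcm3: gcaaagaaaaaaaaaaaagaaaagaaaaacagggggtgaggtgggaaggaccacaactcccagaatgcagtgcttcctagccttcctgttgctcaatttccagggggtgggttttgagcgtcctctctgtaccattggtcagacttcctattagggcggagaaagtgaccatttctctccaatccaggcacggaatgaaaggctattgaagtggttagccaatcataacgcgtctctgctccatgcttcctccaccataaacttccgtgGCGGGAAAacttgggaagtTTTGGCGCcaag
Mcm5: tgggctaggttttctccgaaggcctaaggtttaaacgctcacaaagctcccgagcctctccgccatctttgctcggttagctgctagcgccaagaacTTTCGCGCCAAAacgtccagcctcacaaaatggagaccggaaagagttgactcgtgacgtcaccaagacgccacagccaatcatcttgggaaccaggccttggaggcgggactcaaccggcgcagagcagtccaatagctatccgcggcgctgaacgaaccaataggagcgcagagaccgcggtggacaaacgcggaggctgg
Mcm6: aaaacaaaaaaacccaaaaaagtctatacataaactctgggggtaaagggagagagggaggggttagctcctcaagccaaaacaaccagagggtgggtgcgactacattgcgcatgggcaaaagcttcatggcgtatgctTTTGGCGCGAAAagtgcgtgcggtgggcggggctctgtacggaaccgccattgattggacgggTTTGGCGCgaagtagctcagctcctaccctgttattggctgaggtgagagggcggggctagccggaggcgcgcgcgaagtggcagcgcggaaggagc
Cdc6: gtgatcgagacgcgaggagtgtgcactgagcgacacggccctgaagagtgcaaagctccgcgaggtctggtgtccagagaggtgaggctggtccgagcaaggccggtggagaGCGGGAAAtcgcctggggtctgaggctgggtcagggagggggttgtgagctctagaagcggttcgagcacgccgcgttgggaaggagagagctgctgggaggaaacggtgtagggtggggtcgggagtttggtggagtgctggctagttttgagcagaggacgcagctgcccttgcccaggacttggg
Rrm2: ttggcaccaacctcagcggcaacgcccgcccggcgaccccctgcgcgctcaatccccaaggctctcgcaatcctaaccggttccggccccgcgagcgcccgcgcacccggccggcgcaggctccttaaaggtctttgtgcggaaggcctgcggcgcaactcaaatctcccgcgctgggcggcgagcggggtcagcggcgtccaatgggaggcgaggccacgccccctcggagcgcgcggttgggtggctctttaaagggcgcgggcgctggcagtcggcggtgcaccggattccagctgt

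Both licensing genes and all 4 helicase activation genes were lower than in E in AGHMT-labelled and GHMT libraries, and 1 of 2 and 3 of 4 in CM libraries. Cdc6, which loads the MCM ring, had 0.461, 0.661 and 0.763 CPM in AGHMT-labelled libraries, 0, 0 and 0.687 CPM in GHMT libraries, 1.26, 0.604 and 0.515 CPM in CM libraries, and 10.2, 8.28 and 5.63 CPM in E libraries. All 9 libraries outside E lay below E, and Cdc6 was lower by 3.65 ± 0.66 on the log2 scale in AGHMT-labelled libraries (adjusted p = 0.000653) and by 3.28 ± 0.66 in CM libraries (adjusted p = 0.000945). GHMT libraries had 1 read against 1038 in E, 35.2-fold lower (95% counting interval 6.3 to 1391). Cdt1, the other loader, averaged 0.197 ± 0.0656 CPM in AGHMT-labelled libraries and 0.878 ± 0.178 CPM in CM libraries, against 2.59 ± 0.485 CPM in E libraries (SD, n = 3 each). Cdt1 was lower in AGHMT-labelled libraries than in E (log2 fold change -3.65, adjusted p = 0.000689) and than in CM (-2.12 ± 0.68, adjusted p = 0.0189). The difference between CM and E did not pass (-1.53, adjusted p = 0.0521).

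Cdc45, which with GINS turns the MCM ring into the active helicase, had 0.769, 1.21 and 0.545 CPM in AGHMT-labelled libraries, 1.31, 0 and 0 CPM in GHMT libraries, 2.38, 2.21 and 1.72 CPM in CM libraries, and 15.9, 10.6 and 11 CPM in E libraries. No library outside E reached E, and the log2 fold change against E was -3.88 ± 0.67 in AGHMT-labelled libraries (adjusted p = 0.000437) and -2.56 ± 0.63 in CM libraries (adjusted p = 0.00409). Gins1, a GINS subunit, had 0.461, 1.05 and 0.436 CPM in AGHMT-labelled libraries, no read in GHMT libraries, 1.49, 1.81 and 1.37 CPM in CM libraries, and 2.41, 2.87 and 3.55 CPM in E libraries. The order of the 4 groups held without overlap. Gins1 was lower than in E in AGHMT-labelled libraries (log2 fold change -2.16 ± 0.59, adjusted p = 0.0104) and at least 3.9-fold lower in GHMT libraries (adjusted p = 0.00213), but not past the threshold in CM libraries (-0.91, adjusted p = 0.223). Bounds set a group without reads to 3 reads pooled over its 3 libraries. Gins2, the partner subunit, had 1 read in AGHMT-labelled libraries against 484 in E, a ratio of 196-fold lower (95% counting interval 35.1 to 7770). Exons of Gse1 on the opposite strand cover 67.3% of Gins2's exon bases, and whether strand was used when reads were counted is not given in the sources used here. How reads in the shared bases were counted is therefore uncertain.

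Of the 4 primase and polymerase genes, 3 were lower than in E in each group. Pola1, of the polymerase alpha that works with primase, had 24.1, 19.0 and 19.5 CPM in AGHMT-labelled libraries, 13.1, 27.6 and 13.1 CPM in GHMT libraries, 9.14, 12.9 and 3.95 CPM in CM libraries, and 31.1, 35.8 and 71.2 CPM in E libraries. No library of the other groups reached E, but the margin was narrow for GHMT 2. Pola1 was lower than in E in GHMT libraries (log2 fold change -1.33 ± 0.51, adjusted p = 0.0408) and in CM libraries (-2.40 ± 0.51, adjusted p = 0.00151), and had -1.14 ± 0.49 in AGHMT-labelled libraries (adjusted p = 0.0671). The GHMT call ended without GHMT 1, GHMT 3, AGHMT 1, AGHMT 2, CM 1, E 2 or E 3, with adjusted p-values of 0.0524 to 0.193. Pole, of the leading-strand polymerase epsilon, had 1.77, 2.26 and 1.53 CPM in AGHMT-labelled libraries, 0, 0.521 and 0.687 CPM in GHMT libraries, 2.82, 3.42 and 1.03 CPM in CM libraries, and 30.6, 29.4 and 33.3 CPM in E libraries. The E libraries were within 4 CPM of each other and far above the rest. Pole was lower by 4.07 ± 0.56 in AGHMT-labelled libraries (adjusted p = 7.05e-05), by 3.65 ± 0.55 in CM libraries (adjusted p = 8.43e-05), and 64.2-fold in GHMT libraries on 2 against 3790 reads (95% counting interval 17.8 to 530). Prim1, the catalytic primase subunit, was lower than in E in all 3 groups, by 2.78, 4.51 and 2.99 on the log2 scale in AGHMT-labelled, GHMT and CM libraries. Pold1, of the lagging-strand polymerase delta, had 1 read over the AGHMT-labelled libraries, none in GHMT, 41 in CM and 224 in E. Of the 41 CM reads 39 lay in CM 3, at 6.70 CPM, while CM 1 and CM 2 had 0.0743 and 0.101 CPM. With CM 3 the log2 fold change against E was 0.53 (adjusted p = 0.754), and without it -4.00 (adjusted p = 0.0146).

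Of the 4 clamp genes, 1 was lower than in E in AGHMT-labelled, 2 in GHMT and 1 in CM libraries. Over all genes, 24.6%, 32.9% and 22.5% were called lower there. Median log2 fold changes were -1.06 in AGHMT-labelled and -1.61 in CM libraries. No median is given for GHMT, where Rfc4 and Rfc5 had no read and only bounds can be stated. Pcna, the sliding clamp, had 20.1, 19.9 and 17.7 CPM in AGHMT-labelled libraries, 18.4, 23.4 and 3.44 CPM in GHMT libraries, 19.9, 19.5 and 9.96 CPM in CM libraries, and 16.2, 26.4 and 42.2 CPM in E libraries. All 3 groups overlapped E, and the log2 fold changes against E were -0.56 ± 0.55 in AGHMT-labelled, -0.91 ± 0.58 in GHMT and -0.77 ± 0.55 in CM libraries (adjusted p = 0.419, 0.195 and 0.28). The annotation holds the pseudogenes Pcna-ps1 and Pcna-ps2, so the count of Pcna is uncertain. Rfc4 (GRCm38 chr16:23113943-23127737, minus strand), a subunit of the loader that opens the clamp, had 4.38, 5.18 and 5.45 CPM in AGHMT-labelled libraries, no read in GHMT libraries, 2.60, 4.53 and 2.58 CPM in CM libraries, and 7.39, 6.69 and 8.99 CPM in E libraries. GHMT libraries stood alone at 0, where 20.7 reads would be expected at the AGHMT-labelled level. Rfc4 was at least 6.99-fold higher in AGHMT-labelled than in GHMT libraries (251 against 0 reads, adjusted p = 0.0037) and at least 10.6-fold lower in GHMT than in E libraries (adjusted p = 0.000288). Against E it did not pass in AGHMT-labelled (log2 fold change -0.62, adjusted p = 0.345) or CM libraries (-1.24, adjusted p = 0.0778). Rfc3, another loader subunit, had 4.77, 4.07 and 4.20 CPM in AGHMT-labelled libraries and 0, 13 and 0.687 CPM in GHMT libraries, against 12.4, 10.5 and 13.7 CPM in E libraries. Its 26 GHMT reads included 25 from GHMT 2, and without that library it was higher in AGHMT-labelled than in GHMT libraries by 3.29 on the log2 scale (adjusted p = 0.0226), against -0.25 with it (adjusted p = 0.849). Rfc5, also a loader subunit, was lower than in E in all 3 groups, at least 13.5-fold in GHMT libraries, where it had no read.

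Lig1, the ligase that seals Okazaki fragments, had 2.23, 3.03 and 2.45 CPM in AGHMT-labelled libraries, 0, 0 and 6.19 CPM in GHMT libraries, 2.90, 2.42 and 3.44 CPM in CM libraries, and 31.7, 29.6 and 25.0 CPM in E libraries. All values outside E were below 7 CPM and all E values were at or above 25 CPM. Lig1 was lower than in E by 3.48 ± 0.75 in AGHMT-labelled (adjusted p = 0.00223), 3.71 ± 0.86 in GHMT (adjusted p = 0.00283) and 3.31 ± 0.75 in CM libraries (adjusted p = 0.00239) on the log2 scale.

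All 3 nucleotide supply genes were lower than in E in all 3 groups, and their summed level separated the 4 groups. Their summed level was 105, 113 and 93.6 CPM in AGHMT-labelled libraries, 47.2, 44.8 and 58.4 CPM in GHMT libraries and 27.1, 33 and 18.9 CPM in CM libraries, against 258, 283 and 389 CPM in E libraries. The 4 groups did not overlap. Rrm1, the large subunit of ribonucleotide reductase, had 80.2, 87.3 and 70.4 CPM in AGHMT-labelled libraries, 40.6, 32.8 and 52.9 CPM in GHMT libraries, 19.8, 25.8 and 14.4 CPM in CM libraries, and 169, 164 and 246 CPM in E libraries. The groups were again apart in every library. Against E, Rrm1 was lower by 1.28 ± 0.31 in AGHMT-labelled (adjusted p = 0.00467), 2.20 ± 0.33 in GHMT (adjusted p = 0.000116) and 3.27 ± 0.34 in CM libraries (adjusted p = 2.31e-06) on the log2 scale. It was higher than in CM in AGHMT-labelled (1.98 ± 0.32, adjusted p = 0.000267) and GHMT libraries (1.07 ± 0.33, adjusted p = 0.0116). Between AGHMT-labelled and GHMT libraries the 1.88-fold difference did not pass (log2 fold change 0.91 ± 0.32, adjusted p = 0.0606).

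Rrm2 (GRCm38 chr12:24708241-24714146, plus strand), the small subunit of the reductase and the one made mainly in S phase, had 19.2, 19.0 and 18.0 CPM in AGHMT-labelled libraries, 6.55, 2.08 and 0.687 CPM in GHMT libraries, 4.46, 4.93 and 2.75 CPM in CM libraries, and 68.0, 91.1 and 121 CPM in E libraries. AGHMT-labelled libraries lay above all GHMT and CM libraries and below all E libraries, and GHMT overlapped CM. Rrm2 was 7.18-fold higher in AGHMT-labelled than in GHMT libraries (log2 fold change 2.84 ± 0.58, adjusted p = 0.00591, 926 against 10 reads). Against E it was lower by 2.32 ± 0.45 in AGHMT-labelled (adjusted p = 0.00117), 5.16 ± 0.59 in GHMT (adjusted p = 1.32e-05) and 4.51 ± 0.51 in CM libraries (adjusted p = 6.04e-06). Tyms, which makes thymidylate, had 5.53, 6.55 and 5.24 CPM in AGHMT-labelled libraries and 0, 9.90 and 4.81 CPM in GHMT libraries, against 21.6, 27.7 and 22.0 CPM in E libraries. It was lower than in E in both groups (log2 fold change -2.04 and -2.12, adjusted p = 0.0149 and 0.0155), and the groups overlapped each other.

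All 3 genes of chromatin assembly and methylation copying were lower than in E in all 3 groups. Chaf1a, the large subunit of the chromatin assembly factor that places histones on new DNA, had 0.307, 0.440 and 0.164 CPM in AGHMT-labelled libraries, no read in GHMT libraries, 0.149, 0.403 and 1.89 CPM in CM libraries, and 22.0, 11.1 and 2.60 CPM in E libraries. The E libraries spread widely, with E 3 close to CM 3. Chaf1a was lower by 5.26 ± 1.05 in AGHMT-labelled (adjusted p = 0.00183) and 4.01 ± 1.01 in CM libraries (adjusted p = 0.00593) on the log2 scale, and at least 19.5-fold lower in GHMT libraries (adjusted p = 0.00334). Opposite-strand exons of Ubxn6 cover 52.5% of its exon bases. Uhrf1, which reads hemimethylated DNA behind the fork, had 1.77, 1.60 and 2.29 CPM in AGHMT-labelled libraries, 0, 0.521 and 15.1 CPM in GHMT libraries, 1.64, 3.32 and 2.23 CPM in CM libraries, and 31.2, 22.3 and 23.6 CPM in E libraries. No library reached E, and of the 23 GHMT reads 22 were from GHMT 3. Uhrf1 was lower by 3.76 ± 0.86 in AGHMT-labelled (adjusted p = 0.0033), 2.23 ± 0.87 in GHMT (adjusted p = 0.0427) and 3.42 ± 0.86 in CM libraries (adjusted p = 0.0047). The GHMT call ended without GHMT 1, GHMT 2, AGHMT 1, AGHMT 2, CM 1, E 2 or E 3 (adjusted p = 0.0543 to 0.113).

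All 3 genes of S phase entry were lower than in E in all 3 groups, and both E cyclins were higher in AGHMT-labelled and GHMT libraries than in cardiomyocytes. In GHMT against CM these calls did not hold under every alternative: Ccne1 passed in 7 of 26 alternatives, and Ccne2 did not pass after a correction for GC content (adjusted p = 0.228). Ccne2, a cyclin E that activates Cdk2, had 28.1, 20.9 and 26.6 CPM in AGHMT-labelled libraries, 23.6, 26.6 and 20.6 CPM in GHMT libraries, 5.35, 6.74 and 2.58 CPM in CM libraries, and 36.5, 64.7 and 71.1 CPM in E libraries. The AGHMT-labelled and GHMT libraries overlapped each other and stood between CM and E. Ccne2 was higher than in CM by 2.35 ± 0.43 in AGHMT-labelled (adjusted p = 0.000684) and by 2.25 ± 0.44 in GHMT libraries (adjusted p = 0.000696), and lower than in E by 1.19 ± 0.41 (adjusted p = 0.0268) and 1.28 ± 0.42 (adjusted p = 0.0204). The difference between AGHMT-labelled and GHMT libraries was 0.09 (95% interval -0.80 to 0.99, adjusted p = 0.894). Ccne1, the other cyclin E, had 2.38, 4.07 and 2.51 CPM in AGHMT-labelled libraries, 3.93, 1.04 and 2.06 CPM in GHMT libraries, 0.817, 0.503 and 0.344 CPM in CM libraries, and 28.5, 35.1 and 21.5 CPM in E libraries. Every AGHMT-labelled and GHMT library lay above every CM library and below every E library. It was higher than in CM in AGHMT-labelled (2.35 ± 0.58, adjusted p = 0.00462) and GHMT libraries (1.83 ± 0.73, adjusted p = 0.0417), and 48.2-fold lower in CM than in E libraries (adjusted p = 5.74e-06). E2f1, a transcription factor that drives S phase genes, had 1.38, 2.09 and 1.69 CPM in AGHMT-labelled libraries, 0, 0.521 and 0 CPM in GHMT libraries, 1.12, 0.604 and 2.06 CPM in CM libraries, and 20.4, 12 and 3.52 CPM in E libraries. E 3 was the lowest E library and still above the rest, and E2f1 was lower than in E by 2.79 ± 0.71 in AGHMT-labelled (adjusted p = 0.00635) and 3.28 ± 0.75 in CM libraries (adjusted p = 0.00243).

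**Figure D3:**
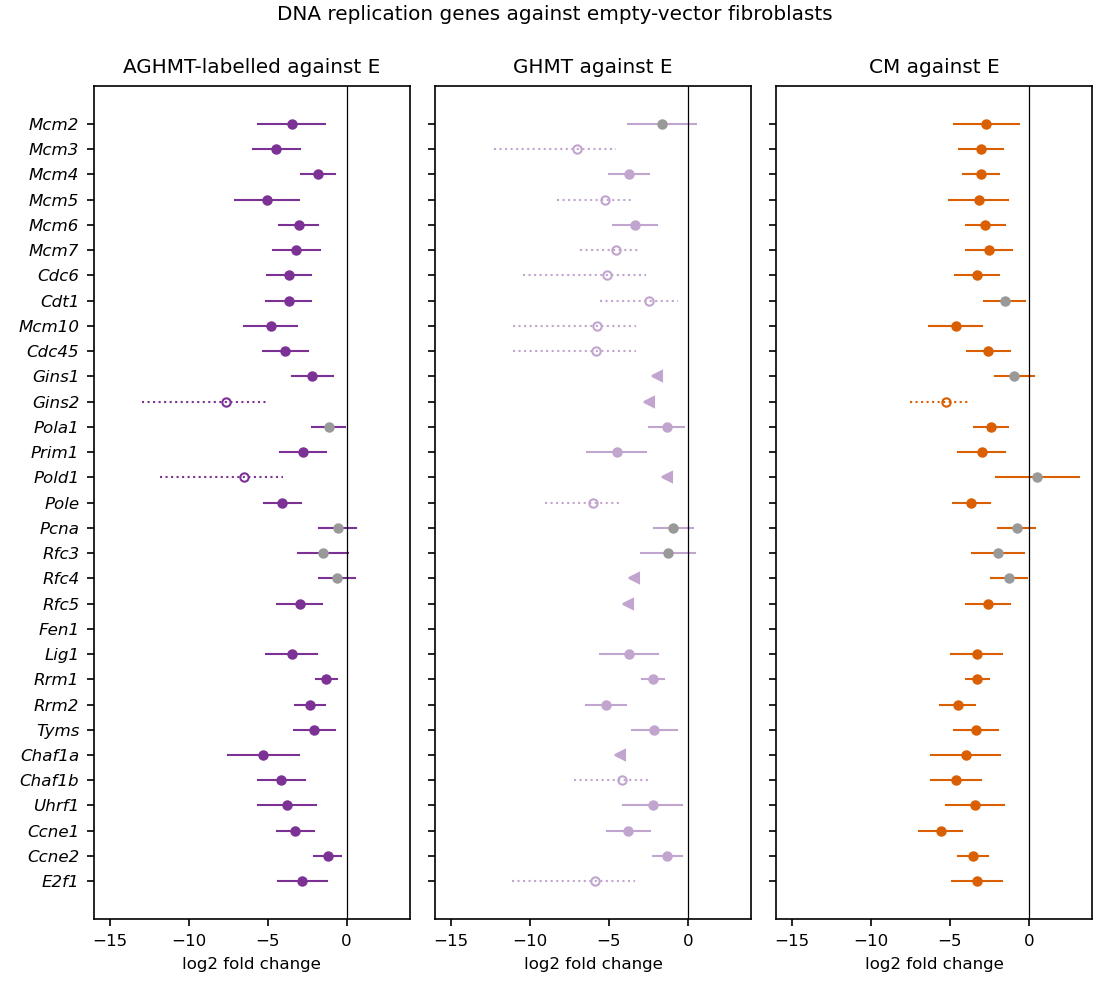
Log2 fold change against E (horizontal axis) of each DNA replication gene in AGHMT-labelled, GHMT and CM libraries; filled circles are fitted values with 95% intervals, grey where the adjusted p missed the threshold. Open circles with dotted lines are pooled read ratios with 95% counting intervals where the lower group had 1 to 3 reads, and triangles are bounds where it had none; all of these passed the test except Pold1 in GHMT. Nearly every gene lies left of 0 in all 3 panels, with Pcna and Rfc4 nearest to it in the AGHMT-labelled panel.

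Between AGHMT-labelled and GHMT libraries, 3 of 30 replication genes (Mcm4, Rfc4 and Rrm2) were higher and none was lower, where 13.2% of all genes were called higher and 4.58% lower. The share of replication genes, 10%, did not exceed that background. An unadjusted p under 0.05 was found for 8 of the 30 genes, where 33.9% of all genes had one. With total counts in place of TMM scaling, 7 of the 30 were higher and none lower, where 19.6% of all genes were called higher and 0.943% lower and the all-gene median was 1.17. The median log2 fold change of the 30 genes was 1.06, or 0.61 with genes without GHMT reads at their bounds, against 0.63 over all genes. Higher values in every AGHMT-labelled than in every GHMT library were seen for 10 of the 30 genes, against 37.4% of all genes. Counts were low in this comparison: the 3 GHMT libraries together held 610 reads of the 31 genes, where 967 would be expected at AGHMT-labelled levels and 3785 at E levels. No GHMT read was found for 7 genes, 1 to 3 reads for 10 and more for 14. For 10 genes all GHMT reads came from a single library. Levels over all genes correlated at 0.787 to 0.826 between GHMT libraries, against 0.982 to 0.985 between AGHMT-labelled ones, and the part of depth and of this spread in the count was not tested. E2f1 had 87 reads in AGHMT-labelled libraries and 1 in GHMT libraries, a ratio of 7.27 (95% counting interval 1.27 to 290) that did not pass the test (adjusted p = 0.131). Pole had 92 against 2 reads, a ratio of 3.84 (1.03 to 32.2; adjusted p = 0.131). Rfc5 had 58 against 0 reads, at least 1.62-fold higher (adjusted p = 0.0533). For Pcna the interval of the log2 difference ran from -0.89 to 1.59, on GHMT libraries that held 14, 45 and 5 reads.

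**Figure D4:**
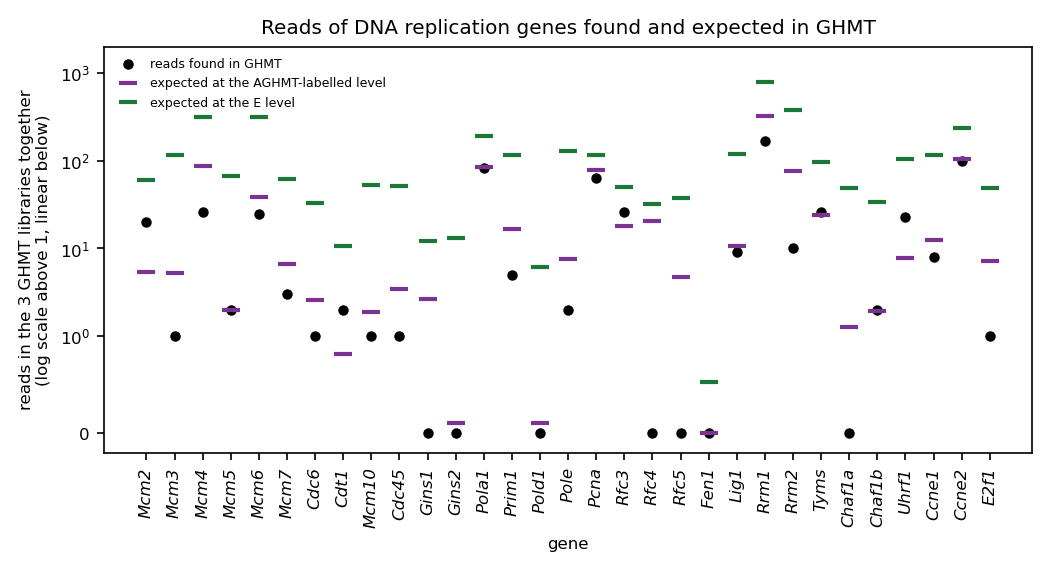
Reads of each DNA replication gene found in the 3 GHMT libraries together (black points), beside the reads expected there at the AGHMT-labelled level (purple bars) and at the E level (green bars); the vertical axis is logarithmic above 1 and linear below. Points at 0 mark the 7 genes without GHMT reads, and Rfc4 and Rrm2 lie well below their purple bars (20.7 and 77.6 reads expected, 0 and 10 found).

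Set against cardiomyocytes, 5 genes were higher in AGHMT-labelled libraries (Pola1, Rrm1, Rrm2, Ccne1 and Ccne2) and 2 lower (Cdt1 and Pold1), where 23.7% of all genes were called higher and 24.4% lower. The Pola1 call (log2 fold change 1.25 ± 0.50, adjusted p = 0.0487) ended without AGHMT 1, AGHMT 2, AGHMT 3, CM 1, CM 3 or E 2 (adjusted p = 0.0662 to 0.166). The Cdt1 call ended without AGHMT 1, AGHMT 2, AGHMT 3 or CM 1 (adjusted p = 0.0627 to 0.0842), and that of Pold1, whose groups overlapped, without AGHMT 2, AGHMT 3 or CM 3 (adjusted p = 0.0554 to 0.447). In GHMT libraries 3 genes were higher than in CM (Rrm1, Ccne1 and Ccne2) and 6 lower, where 23.8% of all genes were called higher and 34.7% lower. The lower genes were Mcm3 (1 against 101 reads), Cdc45 (1 against 64), Pole (2 against 78), and Gins1, Rfc4 and Rfc5, which had no GHMT read and were at least 2.17-fold, 4.48-fold and 1.98-fold lower. Calls of Mcm3, Cdc45, Pole, Rrm1 and Ccne1 were lost when 1 library was left out (adjusted p = 0.0502 to 0.196): GHMT 2 for Mcm3, GHMT 2, GHMT 3, CM 1 or CM 2 for Cdc45, GHMT 2, CM 1 or CM 2 for Pole, GHMT 3, AGHMT 3 or E 1 for Rrm1, and GHMT 1, GHMT 3, AGHMT 1, AGHMT 3, CM 2, CM 3, E 1 or E 2 for Ccne1. The AGHMT-labelled and GHMT comparisons share the CM libraries. The E libraries had the highest mean level for 29 of the 31 genes and CM for the other 2, Pold1 and Fen1. GHMT had the lowest mean for 20, CM for 7 and AGHMT-labelled for 4.

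Levels per kilobase of exon allow genes to be compared with each other. In E libraries the highest were Rrm2 at 33.7 ± 9.63, Mcm4 at 21.2 ± 4.58 and Rrm1 at 17.5 ± 4.19 CPM per kilobase (SD, n = 3). In AGHMT-labelled libraries the highest were Pcna at 8.0 ± 0.554, Ccne2 at 7.21 ± 1.09 and Rrm1 at 7.20 ± 0.771 CPM per kilobase. These neighbours differed by no more than their spread, and their order is not resolved. GHMT libraries had Ccne2 at 6.75 ± 0.852 and Pcna at 6.28 ± 4.33, which overlap as well. CM libraries had Pcna at 6.86 ± 2.35 and Mcm4 at 2.59 ± 0.763 CPM per kilobase. All values of Pcna carry the uncertainty from its pseudogenes.

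The size of the difference from E went with base composition in the AGHMT-labelled and GHMT libraries, over all genes and over the replication genes. Genes with a mean log2 CPM above 0 were placed in 3 classes of equal size by the GC content of their longest transcript. The 30 replication genes were placed by the same GC limits whatever their level. The all-gene median log2 fold change against E was 0.81 in the low, -0.12 in the middle and -1.36 in the high GC class for AGHMT-labelled libraries, 0.91, -0.60 and -2.39 for GHMT libraries, and -0.40, -0.39 and -0.09 for CM libraries. Replication genes had medians of -1.19, -3.34 and -3.65 in the same classes for AGHMT-labelled, -1.33, -5.08 and -5.04 for GHMT and -2.40, -3.31 and -3.17 for CM libraries, below the all-gene median of each class. The genes of the high class were Uhrf1, Ccne1, Chaf1a, Mcm2, Mcm5, Cdt1, E2f1, Rfc5, Mcm7, Gins2, Pold1, Mcm3 and Lig1. They supplied 5.29%, 7.78% and 6.87% of the summed level of the set in AGHMT-labelled libraries, 3.96%, 2.76% and 26.0% in GHMT libraries, 15.6%, 11.6% and 35.5% in CM libraries and 31.1%, 23.0% and 11.9% in E libraries. GHMT 3, CM 3 and E 3 each stood apart from the other libraries of their group. Over 30 genes of shared libraries, Pearson's r between GC content and log2 fold change was -0.713 for AGHMT-labelled against E, -0.337 for GHMT against E and 0.0547 for CM against E, given as a description. Against CM it was -0.681 for AGHMT-labelled and -0.324 for GHMT libraries. All-gene medians against CM were 1.13, 0.13 and -1.35 in the low, middle and high class for AGHMT-labelled libraries. For GHMT libraries they were 1.30, -0.30 and -2.36. After a correction of each library for GC content, 29 genes were lower than in E in AGHMT-labelled, 24 in GHMT and 27 in CM libraries, where 19.1%, 25.6% and 28.6% of all genes were called lower. The median of the 30 genes became -2.47 in AGHMT-labelled, against -3.22 without the correction, -3.76 in GHMT, against -4.46, and -3.11 in CM libraries, against -3.10. The correction ended the GHMT calls of Cdt1, Gins2 and Uhrf1 against E (adjusted p = 0.536, 0.1 and 0.36). Against CM it ended the calls of Cdt1, Pola1 and Pold1 in AGHMT-labelled libraries (adjusted p = 0.337, 0.269 and 0.069) and those of Mcm3, Cdc45, Pole, Rrm1 and Ccne2 in GHMT libraries (0.101, 0.0823, 0.238, 0.235 and 0.228). It also made E2f1 pass as higher in AGHMT-labelled libraries than in CM (log2 fold change 2.10, adjusted p = 0.00293). In GHMT against CM it made Mcm2 (2.27, adjusted p = 0.0462) and Uhrf1 (2.53, adjusted p = 0.0225) pass as higher, on reads almost all from GHMT 3. It left Pcna outside the threshold in all 3 comparisons with E, brought Rfc3 past it in all 3 (adjusted p = 0.0216, 0.0421 and 0.0246 in AGHMT-labelled, GHMT and CM libraries), and brought Rrm1 past it between AGHMT-labelled and GHMT libraries (log2 fold change 1.10, adjusted p = 0.00964). The part of base composition in these differences beyond that correction was not tested.

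**Figure D5:**
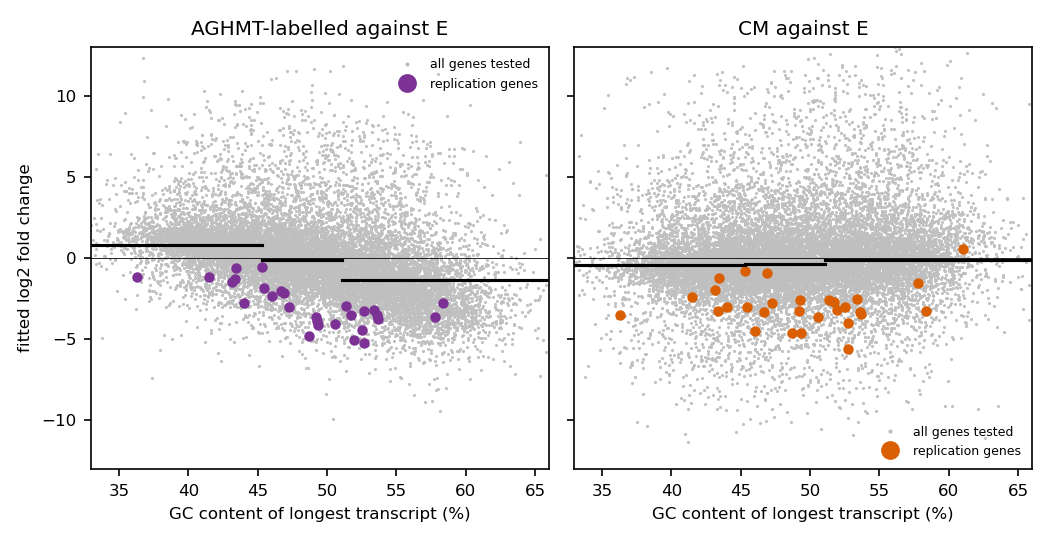
Fitted log2 fold change against E (vertical axis) over the GC content of the longest transcript in percent (horizontal axis) for all genes tested (grey) and DNA replication genes with more than 3 reads in both groups (coloured), in AGHMT-labelled and CM libraries. Black lines are all-gene medians of 3 GC classes, which step from 0.81 to -1.36 in the AGHMT-labelled panel and stay between -0.40 and -0.09 in the CM panel, and most replication genes lie below them in both.

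Other genes of the same pathways were counted beside them. Of 80 further genes of the replisome, nucleotide supply, replication chromatin and S phase entry, 35 were lower and 7 higher than in E in AGHMT-labelled libraries, 39 and 7 in GHMT libraries, and 35 and 3 in CM libraries. Over all genes tested, 24.6%, 32.9% and 22.5% were called lower in the same comparisons. Between AGHMT-labelled and GHMT libraries, 12 of the 80 genes were higher and 4 lower (Orc4, Dnmt1, Asf1a and Cdkn1b). There 13.2% of all genes were called higher and 4.58% lower. Among 43 other replisome and origin genes, 22 were lower in AGHMT-labelled (median log2 fold change -1.70), 25 in GHMT (-2.46) and 17 in CM libraries (-1.04), and Orc4 was the single one higher than in E in both reprogrammed groups. Orc4, a subunit of the origin recognition complex, averaged 157 CPM in AGHMT-labelled, 379 CPM in GHMT, 28.1 CPM in CM and 51.5 CPM in E libraries. It was higher than in E by 1.61 (adjusted p = 0.00731) in AGHMT-labelled and 2.87 (adjusted p = 0.000153) in GHMT libraries on the log2 scale. Donson and Mcm8 had 357 and 358 reads in AGHMT-labelled libraries and 1 read each in GHMT libraries (adjusted p = 0.00406 and 0.00474). Of 10 other nucleotide supply genes, 4 were lower and 1 higher than in E in AGHMT-labelled, 5 and 1 in GHMT and 5 and 1 in CM libraries. The higher one was Rrm2b, the reductase subunit that serves cells outside S phase, at 67.0 CPM in AGHMT-labelled, 118 CPM in GHMT, 22.3 CPM in CM and 9.70 CPM in E libraries. Against E it was higher by 2.79 (adjusted p = 0.000267), 3.6 (adjusted p = 3.67e-05) and 1.21 (adjusted p = 0.0335) on the log2 scale, opposite in sign to Rrm2. Tk1, thymidine kinase, had 170 reads in AGHMT-labelled libraries and none in GHMT libraries, at least 4.73-fold higher (adjusted p = 0.00991).

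Among 8 other replication chromatin genes, 3 were lower than in E and 1 higher in AGHMT-labelled and in GHMT libraries, and 4 lower in CM libraries. Shares of all genes called lower than in E were 24.6%, 32.9% and 22.5% in AGHMT-labelled, GHMT and CM libraries. Those called higher were 21.9%, 19.8% and 19.5%. Dnmt1, the maintenance methyltransferase that Uhrf1 recruits, averaged 5.53 CPM in AGHMT-labelled and 64.8 CPM in E libraries (log2 fold change -3.55, adjusted p = 0.00103). Dnmt1 was also lower than in E in CM libraries, but did not pass in GHMT against E. Asf1a, a histone chaperone, was the one higher than in E, by 1.28 (adjusted p = 0.0155) in AGHMT-labelled and 2.51 (adjusted p = 0.000228) in GHMT libraries. Of 19 other genes of E2F and S phase control, 6 were lower and 4 higher than in E in both AGHMT-labelled and GHMT libraries, and 9 lower and 1 higher in CM libraries. The counts in AGHMT-labelled and GHMT libraries were near the shares of all genes given above. The higher ones in both reprogrammed groups were Rb1, Tfdp2 and the inhibitors of cyclin-dependent kinases Cdkn1c and Cdkn1b. Cdkn1a, another such inhibitor and the gene of this list with the highest mean level, did not pass against E in either reprogrammed group. In CM libraries Cdkn1a was lower than in E. Cdkn1c averaged 225 CPM in AGHMT-labelled, 89.9 CPM in GHMT, 16.2 CPM in CM and 15.9 CPM in E libraries, and was higher than in E by 3.83 (adjusted p = 9.33e-07) and 2.51 (adjusted p = 3.35e-05) in AGHMT-labelled and GHMT libraries. Cdkn1b averaged 144, 361, 56.0 and 47.7 CPM in the same order, higher than in E by 1.60 (adjusted p = 0.00102) and 2.92 (adjusted p = 9.09e-06). Both also differed between AGHMT-labelled and GHMT libraries, Cdkn1c by 1.32 (adjusted p = 0.0119) and Cdkn1b by -1.32 (adjusted p = 0.011). Cdk2, the partner of cyclin E, had 343 reads in AGHMT-labelled libraries and 1 in GHMT libraries (adjusted p = 0.00488), and was lower than in E in AGHMT-labelled libraries by 1.82 (adjusted p = 0.0104). Of 20 mitosis genes, 19 were lower than in E in AGHMT-labelled, 19 in GHMT and 20 in CM libraries, with median log2 fold changes of -2.96, -4.28 and -5.05. Over all genes, 24.6%, 32.9% and 22.5% were called lower in these comparisons. Against CM, 11 of the 20 mitosis genes were higher in AGHMT-labelled and 7 in GHMT libraries, and none lower. There 23.7% and 23.8% of all genes were called higher, and 24.4% and 34.7% lower. Top2a, the topoisomerase that untangles sister chromatids, averaged 42.9 CPM in AGHMT-labelled, 20.4 CPM in GHMT, 9.02 CPM in CM and 320 CPM in E libraries. Between AGHMT-labelled and GHMT libraries 2 of 20 mitosis genes were higher (Tpx2 and Cdk1) and none lower, where 13.2% of all genes were called higher. Cdk1 averaged 10.1 CPM in AGHMT-labelled and 1.42 CPM in GHMT libraries, a log2 difference of 2.80 (adjusted p = 0.00303).

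Annotation limits several counts. Opposite-strand exons of other genes cover 84.2% of the exon bases of Fen1, 17.4% of Ccne2 (Ints8), 12.7% of Rfc4 (Eif4a2) and 10.7% of Rfc5 (Wsb2). Fen1 had no read in AGHMT-labelled or GHMT libraries, 3 reads in CM and 20 in E libraries, so its level is not informative here.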

How the data were processed

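RNA was extracted with TRIzol and made into stranded TruSeq libraries, per the labels' protocols. The authors deposited whole-number read counts per Ensembl gene; Bowtie2 2.0.6, HTSeq, DESeq and the build mm10 are named in the submitters' processing notes, without the strand setting. The authors also deposited a signal table of counts divided by size factors; whole reads were recovered from 100% of its values within 0.001, with totals equal to the counts in 12 columns.

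All 12 libraries were fitted together with edgeR 4.0.16 (R 4.3.3): TMM scaling, filterByExpr (minimum count 10, total 15), robust quasi-likelihood tests and Benjamini-Hochberg adjustment over 15059 genes at 0.05. A prior count of 2 was used for log2 levels, as in the correlations between libraries and the GC classes, and not for fitted fold changes. The recovered reads gave the same counts of called replication genes. Intervals on read ratios are exact Poisson at 95%, and groups without reads were set to 3 reads. Gene positions and lengths came from GENCODE M21, which matched 42462 identifiers.

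The members and gene lists were chosen with earlier results of these data known. Within each role, genes were named by highest mean level, largest change between both reprogrammed groups, or passing a test; others were named after their values were seen. DESeq2 1.42.0, limma 3.58.1, other scalings, filters, GC correction, thinning, a replicate block and leaving out libraries were the alternatives.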

Additional observations from a re-analysis of the deposited data

How the results depend on the processing

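No alternative called a replication gene lower in AGHMT-labelled than in GHMT libraries, or higher than in E. Some alternatives test fewer genes. In every alternative that tested them, 1 of 3 called genes (Rfc4) passed between AGHMT-labelled and GHMT, 19 of 26, 21 of 26 and 13 of 24 against E (AGHMT-labelled, GHMT and CM), and 2 of 7 and 3 of 9 against CM (AGHMT-labelled and GHMT). Those tested in all 27 alternatives were 1, 12, 15, 8, 2 and 0 of these; Gins1, Rfc4 and Rfc5 in GHMT against CM were not tested when only both groups were fitted. For AGHMT-labelled against GHMT the 3 calls (13.2% of all genes higher) became 7 with total counts (19.6%), 6 without mitochondrially encoded genes (21.9%), 8 with limma on deposited values plus 1 (25.0%; 4 with plus 8, 18.9%), 1 of 17 tested with only both groups fitted (9.96%), and 5 without GHMT 1, CM 3 and E 3 together (13.8%). With only both groups fitted, Rrm2 had an adjusted p of 0.0577. Against E, thinning all libraries to 612458 reads outside mitochondrially encoded genes left 16 calls among 21 genes tested in AGHMT-labelled libraries, where 18.5% of all genes were called lower; limma left 13 calls with plus 1 (14.0%) and 22 with plus 8 (16.2%) among 28 tested in CM libraries. Against CM, the AGHMT-labelled count of 7 became 11 with DESeq2 (53.9% of all genes called), 4 and 7 with limma plus 1 and plus 8 (40.3% and 46.6%), 11 of 25 tested with only both groups fitted (67.5%) and 4 when thinned (42.2%). The GHMT count of 9 became 15 and 12 with limma plus 1 and plus 8 (67.8% and 66%), 1 of 7 tested with only both groups fitted (53.4%) and 3 of 21 when thinned (61.0%). The cause was not tested.

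Leaving out each library in turn gave 2 to 8 calls for AGHMT-labelled against GHMT, 19 to 28, 22 to 27 and 23 to 27 against E (AGHMT-labelled, GHMT and CM), and 4 to 11 and 6 to 11 against CM; the shares of all genes called ran from 5.52% to 25.1% (higher), from 10.7% to 27.8%, 26.5% to 37.8% and 16.4% to 25.3% (lower), and from 33% to 53.6% and 49.3% to 59.5% (either direction). The first count was 6 without GHMT 3, 6 without AGHMT 3 and 8 without E 1, where 15.9%, 18.5% and 25.1% of all genes were called higher; AGHMT-labelled against CM gave 11 without GHMT 1 and 4 without AGHMT 3. In GHMT against E, besides Pola1 and Uhrf1, the calls of Cdt1 (without GHMT 1, GHMT 3 or E 2), Gins2 (without any 1 GHMT library) and Ccne2 (without E 2 or E 3; adjusted p = 0.0682 to 0.0714), and in CM against E that of Mcm2 (adjusted p = 0.0542 to 0.116 without AGHMT 1, AGHMT 2, AGHMT 3, CM 1, CM 2, E 1 or E 2), did not survive every omission. No called replication gene changed sign in any alternative. Of genes not called, 11 of 27 changed sign in some omission between AGHMT-labelled and GHMT (among them Mcm2, Mcm5 and Uhrf1 without GHMT 3 and Cdt1 without GHMT 2), 1 in CM against E, 8 in AGHMT-labelled against CM and 6 in GHMT against CM. Those that passed with the new sign follow. Rfc3 ranged from -0.76 to 3.29 in AGHMT-labelled against GHMT (positive without GHMT 2) and from -2.79 to 1.23 in GHMT against CM (negative without GHMT 2). In GHMT against CM, Mcm2 ranged from -8.41 to 1.76 and Uhrf1 from -2.72 to 1.83 (both negative without GHMT 3). Pold1 in CM against E ranged from -4.00 to 1.61 (negative without CM 3), and was -4.28 without GHMT 1, CM 3 and E 3 together. With GC correction, Akt1 became 0.14 in AGHMT-labelled against CM and 0.061 in GHMT against CM, and Mef2c became -0.19 in GHMT against CM; the cause was not tested.

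The labels do not say whether libraries with equal replicate numbers belong together, and the main fit did not pair them. With a replicate block, 2, 25, 24, 24, 5 and 6 genes were called for AGHMT-labelled against GHMT, for AGHMT-labelled, GHMT and CM against E, and for AGHMT-labelled and GHMT against CM. The shares of all genes were 6.97% (higher), 19.0%, 29.1% and 18.9% (lower), and 39.4% and 51.6% (either direction) in the same order. GHMT libraries were the shallowest: 3 reads pooled over that group correspond to 0.725 CPM, against 0.0246 CPM in E.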
